A study of Mus musculus with 11 samples.

Results

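Epiblast stem cells of the mouse line E3 carrying a green fluorescent reporter of Oct4 were sorted by flow cytometry, and the reporter positive fraction, EpiSC-GFP+, was set against mouse embryonic stem cells, ESC. These 2 groups hold 4 of the 11 bead arrays of the series, with 2 arrays in each group. E3 cells were grown in CM, the conditioned medium of epiblast stem cell culture, and sorted into EpiSC-GFP+ and a reporter negative fraction, EpiSC-GFP-. EpiSC are cells of the line GOF18. All of these cells are labelled male, the replicates are labelled biological, and neither the strain nor the medium of the ESC is given in the labels. EpiSC-GFP- and EpiSC, with 2 arrays each, were used to ask whether EpiSC-GFP+ differed from other epiblast stem cells in its difference from ESC, and the other 3 arrays shared the normalization and served where all arrays outside ESC are counted. They are 2 of GOF18 cells overexpressing Sox2 in CM, Epi-Sox2, which also add to the estimate of the spread, and 1 of line T9, T9-EpiSC, grown on feeder fibroblasts and harvested without them. EpiSC-GFP+ comes from the line E3 alone and the line of the ESC is not named, so cell type, cell line and culture cannot be told apart in any difference from ESC.

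A probe was kept when its detection p-value was below 0.01 on both arrays of ESC or of EpiSC-GFP+. This left 11402 of 25697 probes and 8472 genes, of which 644 were probes without a gene name. Each gene is given by its brightest passing probe, called the representative probe. Levels are log2 intensities after normalization, differences are EpiSC-GFP+ minus ESC in log2 units ± standard error (SE) unless another pair is named, and adjusted p-values are from limma. A gene was called when the adjusted p-value was below 0.05. It was counted as within 2-fold when it was detected on all 4 arrays and the 95% interval of its difference lay between -1 and 1, since a p-value that misses the threshold does not show a like level. Of the passing probes, 1767 passed through ESC alone and 1269 through EpiSC-GFP+ alone. Such a probe had to differ, so a call on it describes the detection and is no further evidence.

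Mouse pluripotent cells are maintained in culture in a naive state, that of embryonic stem cells and the epiblast before implantation, and a primed state, that of epiblast stem cells and the epiblast after implantation. Oct4, encoded by Pou5f1, and Sox2 are present in both states. Naive cells rely on leukaemia inhibitory factor (LIF) and Stat3 and on a set of transcription factors that includes Klf4, Esrrb, Klf2, Tbx3, Tfcp2l1 and Nanog. Primed cells rely on FGF and activin and express Otx2, Pou3f1 and Fgf5. The comparison asks which genes of the embryonic stem cell state the reporter positive fraction reaches and which it lacks.

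The arrays differed strongly in brightness and in most genes. Mean intensity was 623 and 595 on the ESC arrays, 311 and 300 on the EpiSC-GFP+ arrays and 200 to 371 on the others, and the part of this brightness in the differences from ESC was not tested beyond the normalizations given below. Detected probes numbered 10748 and 10535 in ESC and 10270 and 10315 in EpiSC-GFP+. Over the 8472 genes, which are not independent replicates, the ESC arrays correlated with each other at r = 0.996, the EpiSC-GFP+ arrays at 0.993, and the EpiSC-GFP+ with the ESC arrays at 0.789 to 0.794. EpiSC-GFP+ correlated with EpiSC-GFP- at 0.962 to 0.964. Of all genes 76.7% were called against ESC, 3911 higher (46.2%) and 2587 lower (30.5%). The groups did not overlap in 90.9% of genes, 34.8% were within 2-fold, 9.16% were called lower with no probe detected in EpiSC-GFP+, and 6.99% were called higher with no probe detected in ESC. The median difference of all genes was 0.27. It was -0.02 with cyclic loess and -0.36 with median scaling in place of quantile normalization, and the share of calls that were higher moved from 60.2% to 48.1% and 32.1%. Small differences from ESC therefore depend on the scaling, while the ESC level cancels in the differences from EpiSC-GFP-, which share with ESC the normalization, the filter and the estimate of the spread. Median scaling aligned the medians of all 25697 probes, of which 36% to 45.4% were detected on each array. Its limma adjusted p-values depended on the size of the difference alone, as for Klf4 (-0.94, 2e-04) and Pecam1 (0.94, 0.000203). A call or an interval under median scaling thus reflects a size of difference and does not measure the spread of a gene's replicates. Since RNA of many cells was measured together, in sorted fractions too, fewer cells that express a gene and less RNA per cell cannot be told apart.

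The markers Klf4 and Dppa5a, which are naive, were within 2-fold of ESC in EpiSC-GFP+ under quantile normalization, whereas Nanog was lower and Otx2, which is primed, was higher. Klf4, a Krüppel-like transcription factor, read 8.42 and 8.45 on the ESC arrays and 8.21 and 8.22 on the EpiSC-GFP+ arrays. Its difference of -0.22 ± 0.19 had an interval of -0.65 to 0.21 (adjusted p = 0.314). With cyclic loess Klf4 was called lower by a difference of -0.54 (adjusted p = 0.0438) and with median scaling by -0.94 (adjusted p = 2e-04), and it was not within 2-fold under either or with the authors' values, and another Klf4 probe differed by -3.74, as set out below. Dppa5a, an RNA-binding protein abundant in naive cells, read 14.81 and 14.89 in ESC and 14.39 on each EpiSC-GFP+ array. It was called lower by a small amount, -0.47 ± 0.12 (adjusted p = 0.00477), was within 2-fold, and differed by 0.05 with cyclic loess (adjusted p = 0.711) and -0.20 with median scaling (adjusted p = 0.469). In EpiSC-GFP- Dppa5a averaged 10.72 and in EpiSC 8.48, so that EpiSC-GFP+ stood 3.67 ± 0.12 above EpiSC-GFP- (adjusted p = 6.2e-08) and 5.91 above EpiSC (adjusted p = 2.2e-09). Otx2, a homeobox factor of the epiblast and anterior brain, read 4.90 and 5.10 in ESC, where it was detected on 1 of 2 arrays, and 9.27 and 9.57 in EpiSC-GFP+, a difference of 4.42 ± 0.14 (adjusted p = 9.92e-09). Its difference from EpiSC-GFP- was 0.30 (adjusted p = 0.12). EpiSC-GFP+ thus carried high signals for markers of both states in the RNA of 1 sorted population.

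Pou5f1 itself did not follow the reporter sort. It read 11.43 and 11.50 in ESC, 13.02 and 12.97 in EpiSC-GFP+ and averaged 13.38 in EpiSC-GFP-. Its representative probe was higher than in ESC by 1.53 ± 0.12 (adjusted p = 1.95e-06), and lower than in EpiSC-GFP- by a difference of -0.38 ± 0.12 (adjusted p = 0.0408). The other Pou5f1 probe differed from ESC by -0.05 (adjusted p = 0.771), with 12.21 and 12.45 in ESC and 12.27 and 12.30 in EpiSC-GFP+. On each EpiSC-GFP- array that probe read 12.26, so the lower level than in EpiSC-GFP- rests on the representative probe alone. No probe of the fluorescent protein was analysed here.

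**Figure D1:**
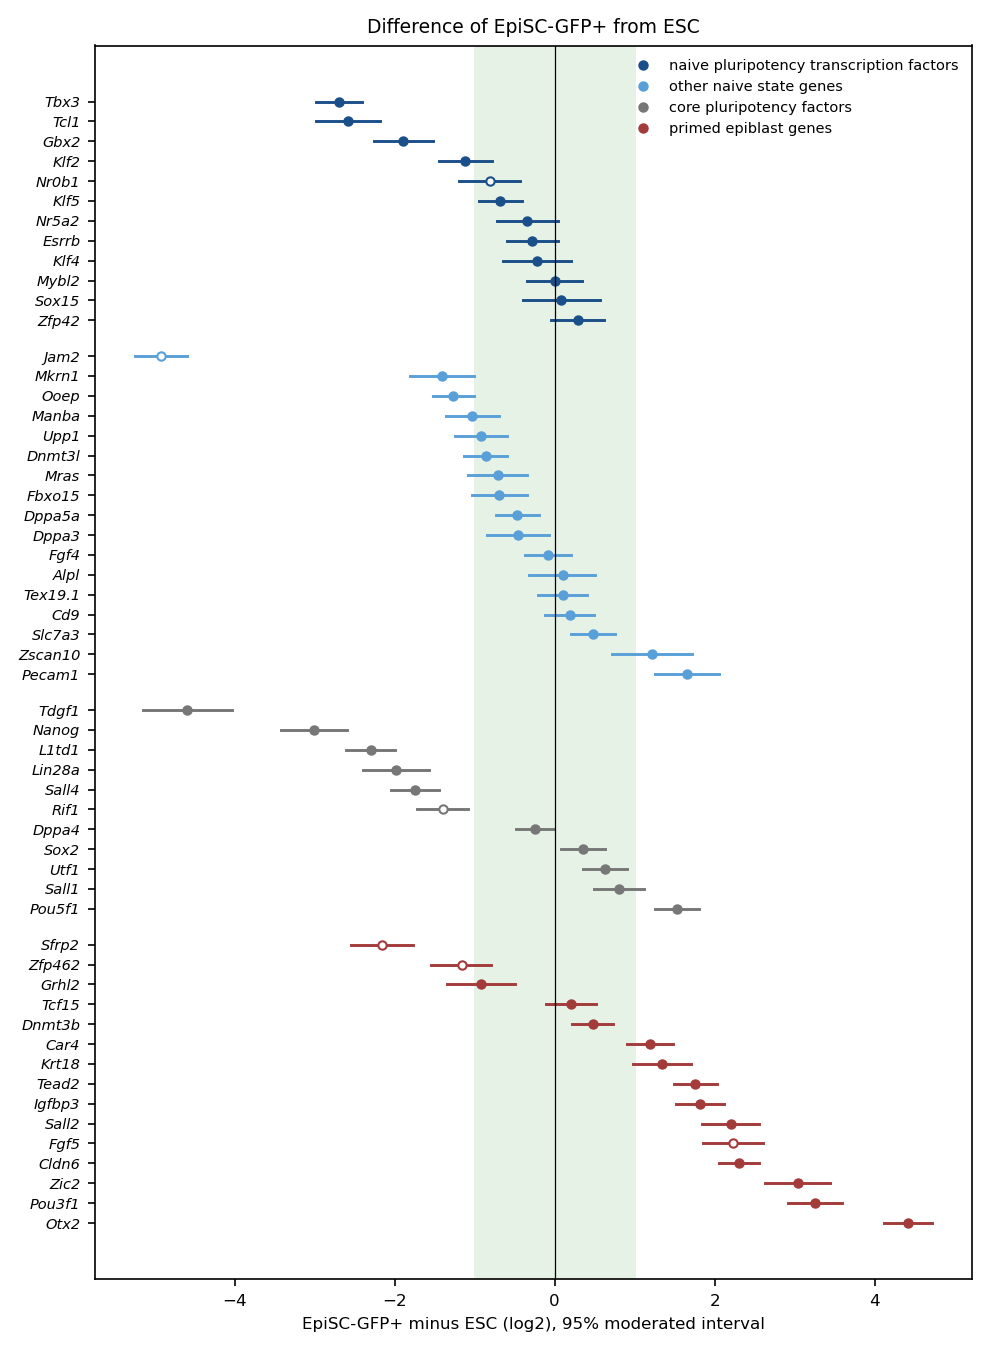
Difference of EpiSC-GFP+ from ESC (log2, horizontal axis) for every tested member of the naive transcription factors, other naive genes, core factors and primed genes, with 95% moderated intervals from limma (2 arrays a group). Open points mark representative probes not detected in 1 of the groups, and the shaded band spans -1 to 1. Most naive points lie in the band or to its left, and the primed points from Car4 to Otx2 lie to its right or cross its edge.

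The naive transcription factors stood at or below their ESC level in EpiSC-GFP+, and most stood well above their level in the other epiblast stem cells. Mybl2 was only 0.78 above EpiSC-GFP-. Nr0b1 read 4.27 and 4.35 in EpiSC-GFP+ and 4.23 and 4.35 in EpiSC-GFP-. Of 15 listed, 12 were tested: 0 were called higher than in ESC, 6 were lower and 7 were within 2-fold, with a median difference of -0.51 beside 0.27 over all genes. Of all genes 46.2% were higher and 30.5% lower. Those within 2-fold were 34.8% of all genes, or 45.4% of those detected on all 4 arrays. With the other naive genes below, 14 of 29 (48.3%) were within 2-fold, near the share among genes detected on all 4 arrays. Against EpiSC-GFP-, where 30.2% of all genes were called and 16.2% were higher, 11 of the 12 were called higher, with a median difference of 2.18. Against EpiSC, where 43.6% were called and 21% were higher, 11 were called higher, with a median of 2.26. The count within 2-fold was 4 with cyclic loess and 1 with median scaling, and the counts against EpiSC-GFP- and EpiSC were 11 under both.

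Esrrb, an orphan nuclear receptor of the naive network, read 11.83 and 12.00 in ESC and 11.61 and 11.65 in EpiSC-GFP+, a difference of -0.28 ± 0.14 (adjusted p = 0.0966). It averaged 7.99 in EpiSC-GFP-, and EpiSC-GFP+ was 3.64 ± 0.14 higher (adjusted p = 1.84e-07). Zfp42, the zinc finger protein also known as Rex1, read 9.16 and 9 in ESC and 9.26 and 9.49 in EpiSC-GFP+, the higher arrays being those of EpiSC-GFP+. Its difference of 0.29 ± 0.15 did not pass (adjusted p = 0.0926), and it was 3.27 above EpiSC-GFP-. Nr5a2, a nuclear receptor, read 7.02 and 7.30 in ESC and 6.90 and 6.74 in EpiSC-GFP+ (-0.34 ± 0.17, adjusted p = 0.0947). It averaged 4.46 in EpiSC-GFP-. The other passing Nr5a2 probe, a dim one, was called lower than in ESC (-0.83, limma adjusted p = 0.0269). That probe was detected on 1 of 2 EpiSC-GFP+ arrays, and read 5.20 and 4.43 in EpiSC-GFP+ and 5.54 and 4.63 in EpiSC-GFP-. Klf4 averaged 4.72 in EpiSC-GFP- and 4.65 in EpiSC, so that EpiSC-GFP+ was 3.49 ± 0.19 and 3.56 higher (adjusted p = 2.08e-06 and 1.26e-06). Sox15, a relative of Sox2, differed from ESC by 0.08 ± 0.22, and the cell cycle factor Mybl2 by 0.00 ± 0.15. With cyclic loess Esrrb was called lower (-0.54, adjusted p = 0.00677), as was Nr5a2 (-0.69, adjusted p = 0.0112). Under median scaling the differences were -0.88 for Esrrb, -1.09 for Nr5a2, -0.62 for Sox15 and -0.64 for Mybl2, all called lower and none within 2-fold, and -0.39 for Zfp42, which was not called and was within 2-fold under both (-0.02 with cyclic loess). Klf5 was within 2-fold and called lower (-0.68 ± 0.12, adjusted p = 0.000494), but was not within 2-fold under either scaling.

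The factors that fell against ESC did so by different amounts. Klf2, another Krüppel-like factor, read 11.45 and 11.32 in ESC and 10.12 and 10.42 in EpiSC-GFP+, a fall of 1.12 on the log2 scale (SE 0.15, adjusted p = 7.13e-05), and was 2.63 above EpiSC-GFP-. Gbx2, a homeobox gene that acts downstream of LIF, read 10.33 and 10.29 in ESC and 8.46 and 8.38 in EpiSC-GFP+ (-1.89 ± 0.17, adjusted p = 3.64e-06). It averaged 6.19 in EpiSC-GFP- and 5.43 in EpiSC, so EpiSC-GFP+ lay between the groups without overlap. Tbx3, a T-box factor, read 9.15 and 9.07 in ESC and 6.35 and 6.48 in EpiSC-GFP+ (-2.69 ± 0.13, adjusted p = 6.26e-08), and averaged 4.29 in EpiSC-GFP-. Its other passing probes differed from ESC by -1.80 and 0.19, the last of these a dim probe. Tcl1, a cofactor of the kinase Akt, read 9.13 and 9.28 in ESC and 6.52 and 6.73 in EpiSC-GFP+ (-2.58 ± 0.18, adjusted p = 7.23e-07), while its other probe differed by 0.29 (adjusted p = 0.127). Nr0b1, an orphan nuclear receptor also called Dax1, was dim. It read 4.96 and 5.28 in ESC, was not detected in EpiSC-GFP+ and was at least 1.05-fold lower (adjusted p = 0.00147). Prdm14 was not detected in either group, and Tfcp2l1 and Zfp57 were not analysed here.

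**Figure D2:**
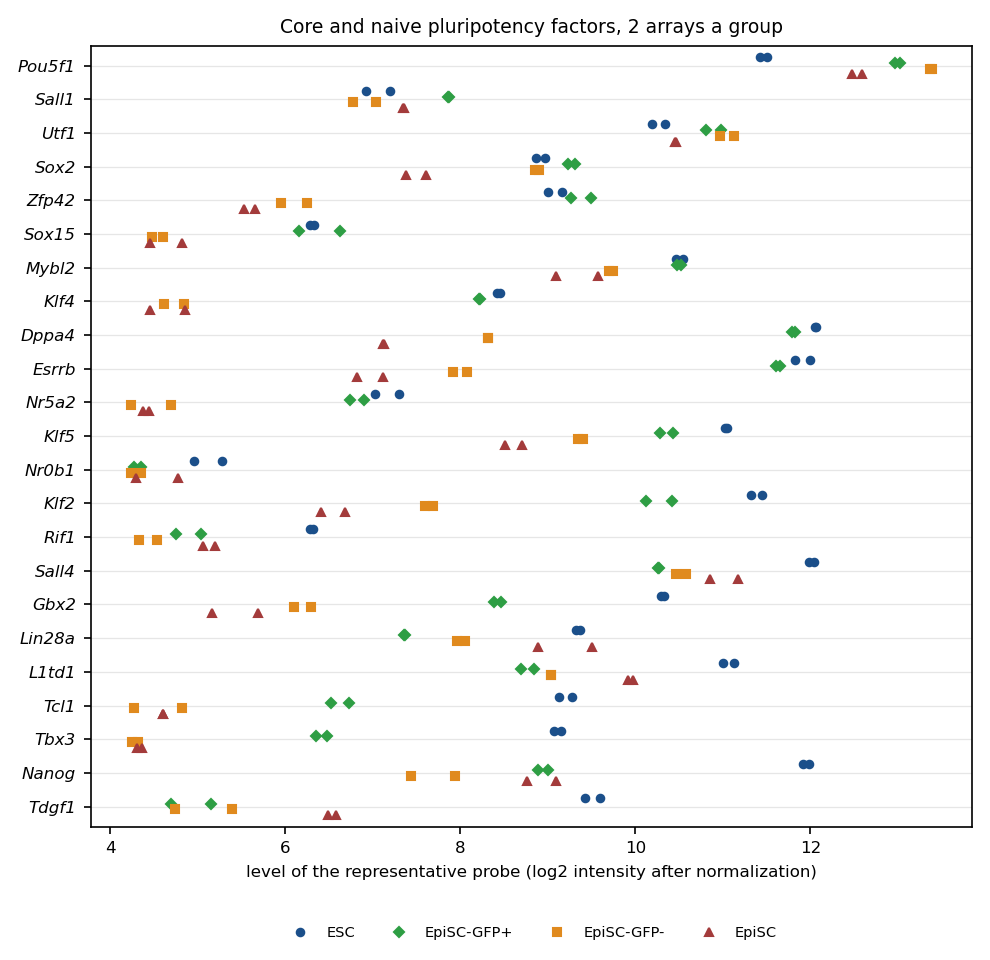
Level of the representative probe (log2 intensity after normalization, horizontal axis) of the 23 tested core and naive factors on each array of ESC, EpiSC-GFP+, EpiSC-GFP- and EpiSC, ordered by the difference of EpiSC-GFP+ from ESC. For Zfp42, Klf4, Esrrb and Nr5a2 the EpiSC-GFP+ points lie beside those of ESC, for Gbx2, Tcl1 and Tbx3 they lie between ESC and the other groups, and for Nanog they lie beside those of EpiSC.

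Promoters of these genes were searched for 4 motifs of factors in the lists, as naive genes are known to share binding sites of such factors. RefSeq (GRCm38.p6) gave the 250 bases before the start for 11 of the 15 core and naive genes that were within 2-fold of ESC and called higher than in EpiSC-GFP-. The motifs, read on both strands, were AAGGTCA (Esrrb), CCACACCC (Krüppel-like factors), ATGCAAAT (the octamer of POU factors such as Oct4) and CATTGTT (Sox factors), and no 2 of them overlap in the sequences shown. The octamer was found in 1 of the 11 promoters, beside 1.61% of 27025 mouse promoters of that length, and the CCACACCC motif in 2 of 11, beside 3.19%. AAGGTCA and CATTGTT were found in 0 of 11, beside 4.05% and 3.36%, which says only that these letters are not in these windows. The promoters with a match, of Zfp42 (chr8:43307010-43307259, minus strand) and Sox15 (chr11:69654787-69655036, plus strand), are shown 5′ to 3′ with the matches in capitals.
Zfp42: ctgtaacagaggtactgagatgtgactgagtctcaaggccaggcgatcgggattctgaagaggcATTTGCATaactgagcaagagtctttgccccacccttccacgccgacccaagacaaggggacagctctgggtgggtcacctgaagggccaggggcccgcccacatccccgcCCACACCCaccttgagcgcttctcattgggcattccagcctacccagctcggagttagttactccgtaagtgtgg
Sox15: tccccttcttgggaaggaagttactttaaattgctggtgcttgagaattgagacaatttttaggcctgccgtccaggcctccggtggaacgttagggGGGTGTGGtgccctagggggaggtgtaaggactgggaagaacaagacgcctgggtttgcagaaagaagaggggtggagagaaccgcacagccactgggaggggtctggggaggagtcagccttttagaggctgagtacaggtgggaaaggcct

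The core factors, which both states use, did not move together. Of 15 listed, 11 were tested, with 4 called higher and 6 lower against ESC and 3 within 2-fold, and a median difference of -1.40. Over all genes 46.2% were higher, 30.5% lower and 34.8% within 2-fold. Under median scaling 1 core factor was higher and 7 were lower. Nanog, a homeobox factor that is high in naive cells, read 11.99 and 11.92 in ESC and 8.89 and 9 in EpiSC-GFP+, a difference of -3.01 ± 0.18 (adjusted p = 2.96e-07). It averaged 7.69 in EpiSC-GFP- and 8.93 in EpiSC. EpiSC-GFP+ was 1.26 ± 0.18 above EpiSC-GFP- (adjusted p = 0.00116) and differed by 0.01 from EpiSC (adjusted p = 0.957). Dppa4, which binds chromatin in pluripotent cells, read 12.06 and 12.05 in ESC and 11.79 and 11.83 in EpiSC-GFP+ (-0.25 ± 0.11, adjusted p = 0.055), and was 3.49 above EpiSC-GFP- and 4.69 above EpiSC. Its other 2 probes differed from ESC by -0.77 and -2.20, and Dppa4 was called lower with cyclic loess (-0.52) and median scaling (-0.84). Sox2 read 8.97 and 8.86 in ESC and 9.31 and 9.23 in EpiSC-GFP+ and was called higher by 0.35 ± 0.12 (adjusted p = 0.0235). It was 0.02 with cyclic loess and -0.33 under median scaling, and its other probe fell from 9.85 on both ESC arrays to a signal not detected in EpiSC-GFP+ (-4.97). Without EpiSC-GFP+ replicate 1, EpiSC-GFP+ replicate 2 or ESC replicate 2 the Sox2 call was lost (adjusted p = 0.109, 0.0551 and 0.124).

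The core genes Tdgf1, L1td1, Lin28a and Sall4 were lower in EpiSC-GFP+ than in ESC and were not called higher than in EpiSC-GFP-. Tdgf1, which encodes the Nodal coreceptor Cripto, read 9.42 and 9.60 in ESC and 4.69 and 5.15 in EpiSC-GFP+ (-4.59 ± 0.25, adjusted p = 1.57e-07), and its other probe differed by -3.40. Its representative probe was detected on 1 of 2 EpiSC-GFP+ arrays. L1td1, an RNA-binding protein, differed from ESC by -2.30 ± 0.14 and Lin28a, which blocks maturation of let-7 microRNAs, by -1.98 ± 0.19. Lin28a was also lower than in EpiSC-GFP- (-0.64, adjusted p = 0.0277). Sall4, a zinc finger factor, differed by -1.75 ± 0.13, with -1.33 and 0.93 for its other probes. Rif1, a factor of replication timing, was not detected in EpiSC-GFP+ and was at least 2.35-fold lower than in ESC (adjusted p = 1.04e-05), and its reading was 0.47 above that in EpiSC-GFP- (adjusted p = 0.0335). Utf1, a chromatin factor, and Sall1 were called higher by 0.63 ± 0.12 and 0.80 ± 0.14, and neither was called under median scaling (0 for Utf1 and 0.08 for Sall1).

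Other genes of the naive state divided likewise. Of 20 listed, 17 were tested, with 3 called higher, 10 lower and 7 within 2-fold, and a median of -0.47. Of all genes 46.2% were higher, 30.5% lower and 34.8% within 2-fold. Against EpiSC-GFP- 12 of the 17 were called higher and 0 lower, with a median of 2.03, and against EpiSC 14 were higher and 1 lower, where 14% of all genes were lower than in EpiSC-GFP- and 22.7% lower than in EpiSC. Tex19.1, which restrains transposons in germ cells, read 10.07 and 10.10 in ESC and 10.19 and 10.18 in EpiSC-GFP+ (0.10 ± 0.14, adjusted p = 0.509), and was 3.41 above EpiSC-GFP-. Alpl, the alkaline phosphatase used as a stain of pluripotent colonies, read 9.11 and 9.04 in ESC and 9.12 and 9.23 in EpiSC-GFP+ (0.10 ± 0.19, adjusted p = 0.637), and was 2.03 above EpiSC-GFP-. Fgf4, a growth factor of the inner cell mass, differed from ESC by -0.08 ± 0.13 and was 0.88 above EpiSC-GFP-. Under median scaling Fgf4 was called lower by a difference of -0.83, Alpl by -0.60 and Tex19.1 by -0.57, and none of these was within 2-fold. Fgf4 was also called lower with cyclic loess (-0.44).

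Ooep and others of these genes were lower than in ESC and far above the other epiblast stem cells. Ooep, an RNA-binding protein of the oocyte, read 12.39 and 12.30 in ESC and 11.01 and 11.14 in EpiSC-GFP+ (-1.27 ± 0.11, adjusted p = 4.48e-06). For Ooep EpiSC-GFP+ stood 5.24 ± 0.11 above EpiSC-GFP- (adjusted p = 8.26e-09) and 5.59 above EpiSC. The following members were chosen after their values were seen. Dnmt3l, which stimulates de novo DNA methylation, was lower than in ESC by a difference of -0.86 ± 0.12 and higher than in EpiSC-GFP- by 3.84. Fbxo15, an F-box protein used as a pluripotency reporter, differed by -0.69 ± 0.15 and 3.16, and Manba, a lysosomal mannosidase, by -1.03 ± 0.15 and 2.51. Dppa3, a maternal factor also called Stella, was within 2-fold of ESC (-0.46 ± 0.17) and 2.25 above EpiSC-GFP-. Cd9 and Slc7a3, both membrane proteins, were within 2-fold at 0.19 and 0.48.

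Some naive genes were far from their ESC level. Jam2, a junctional adhesion protein, read 9.69 and 9.59 in ESC and was not detected by this probe in EpiSC-GFP+, at least 24.0-fold lower (adjusted p = 9.92e-09). All 4 Jam2 probes were called lower, by differences from -0.78 to -4.92, and 1 of them was detected on 1 EpiSC-GFP+ array. Mkrn1, a ubiquitin ligase, differed by -1.41 ± 0.18. Pecam1, an adhesion receptor of the inner cell mass, read 6.53 and 6.69 in ESC and 8.22 and 8.30 in EpiSC-GFP+ (1.65 ± 0.18, adjusted p = 1.59e-05), but its other probe was called in the opposite direction (-1.36). Zscan10, a zinc finger factor, was higher by 1.22 ± 0.22.

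Genes of the primed epiblast were mostly higher in EpiSC-GFP+ than in ESC. Of 19 listed, 15 were tested, and 11 were called higher, 3 lower and 2 within 2-fold, with a median difference of 1.76. Over all genes 46.2% were higher, 30.5% lower and 34.8% within 2-fold. Of the 15, 4 passed the filter through EpiSC-GFP+ alone (Fgf5, Otx2, Zic2 and Sall2) and 2 through ESC alone (Sfrp2 and Zfp462). Against EpiSC-GFP- 2 of the 15 were higher and 3 lower, beside 16.2% and 14% of all genes. Against EpiSC 1 was higher and 6 lower, beside 21% and 22.7% of all genes. The median difference of the primed genes from ESC stayed above the all-gene median with cyclic loess (1.43) and median scaling (1.13). Pou3f1, the POU factor Oct6, read 5.97 and 6.14 in ESC and 9.33 and 9.29 in EpiSC-GFP+ (3.26 ± 0.15, adjusted p = 5.81e-08), and differed from EpiSC-GFP- by -0.36 (adjusted p = 0.102). Zic2, a zinc finger factor of the epiblast and neural plate, read 4.88 and 5.25 in ESC, where it was detected on 1 of 2 arrays, and 8 and 8.20 in EpiSC-GFP+ (3.04 ± 0.18, adjusted p = 2.79e-07). Cldn6, a tight junction protein, rose by 2.30 ± 0.11.

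The growth factor Fgf5, a defining marker of the epiblast after implantation, lay between ESC and the other epiblast stem cells. It was not detected in ESC (4.73 and 4.34), read 6.67 and 6.87 in EpiSC-GFP+ and averaged 8.96 in EpiSC-GFP- and 9.67 in EpiSC. It was at least 3.49-fold higher than in ESC (adjusted p = 1.35e-06), a bound against the lowest detected signal of the ESC arrays, and lower than in EpiSC-GFP- by a difference of -2.20 ± 0.17 (adjusted p = 2.16e-05) and than in EpiSC by -2.90 (adjusted p = 2.14e-06). Fgf8, a growth factor of the primitive streak, was likewise at least 1.83-fold higher than in ESC (adjusted p = 0.00105) and lower than in EpiSC-GFP- (-1.77, adjusted p = 0.000544) and EpiSC (-3.23, adjusted p = 6.71e-06). Igfbp3, a binding protein of insulin-like growth factors, was 1.82 ± 0.13 above ESC and differed from EpiSC-GFP- by -1.22 (adjusted p = 0.000228). Dnmt3b, a de novo DNA methyltransferase, read 12.84 and 12.79 in ESC and 13.30 on each EpiSC-GFP+ array (0.48 ± 0.11, within 2-fold) and differed by 0.12 with cyclic loess and -0.09 under median scaling, neither of them called. Tcf15, a factor of naive cells poised for priming, differed by 0.21 ± 0.14, or -0.49 under median scaling, and was 0.81 above EpiSC-GFP-. Sfrp2, a secreted Wnt modulator, was not detected in EpiSC-GFP+ and was at least 3.42-fold lower than in ESC.

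**Figure D3:**
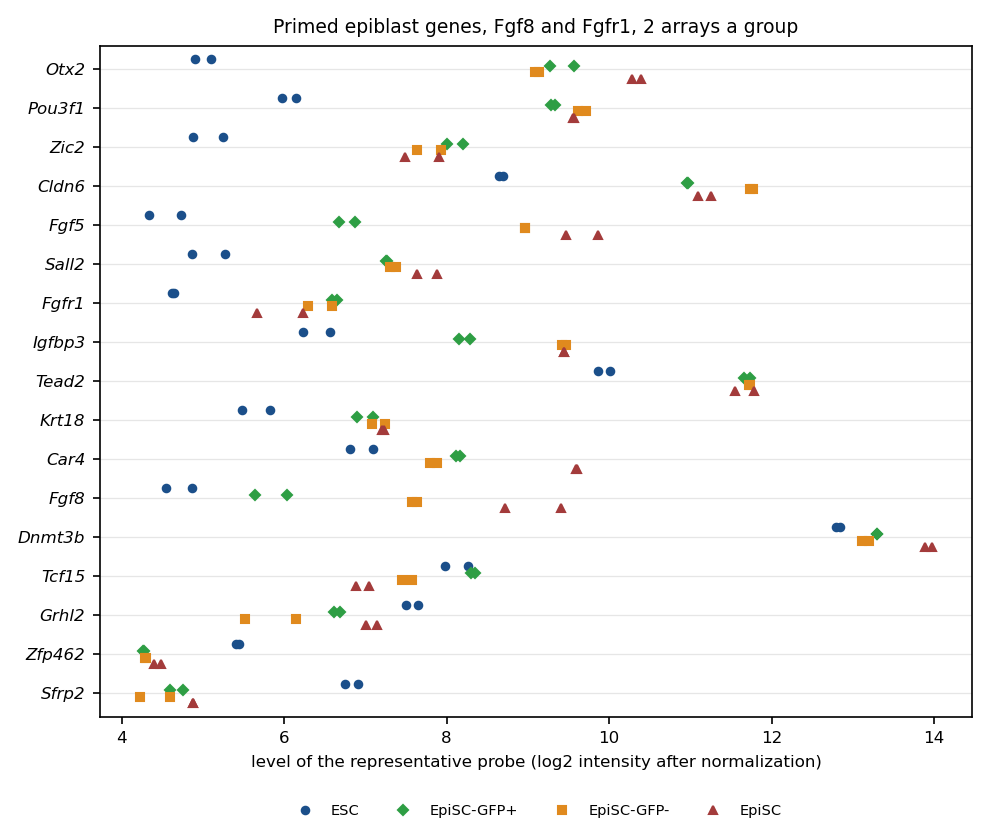
Level of the representative probe (log2 intensity after normalization, horizontal axis) of the primed epiblast genes, Fgf8 and Fgfr1 on each array of the groups. For Otx2, Pou3f1 and Zic2 the EpiSC-GFP+ points lie with EpiSC-GFP- and 3.04 to 4.42 above ESC, and for Fgf5 and Fgf8 they lie between ESC and the other groups.

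Of the 13 genes of the LIF and Jak-Stat3 list, which signal in naive cells, 13 were tested, with 8 called lower, 3 higher and 2 within 2-fold and a median of -0.81. The shares over all genes were 30.5% lower, 46.2% higher and 34.8% within 2-fold. Of the 13 LIF genes, 2 passed the filter through ESC alone (Jak1 and Il6st) and 2 through EpiSC-GFP+ alone. Socs3, a feedback inhibitor and target of Stat3, read 9.96 and 9.81 in ESC and 7.97 and 8.20 in EpiSC-GFP+ (-1.80 ± 0.19, adjusted p = 1.23e-05) and differed from EpiSC-GFP- by -0.36 (adjusted p = 0.178). Pim3, a kinase and Stat3 target, was lower by a difference of -1.5 ± 0.13 and 0.74 above EpiSC-GFP-. Jak1, the kinase of the LIF receptor complex, and Il6st, its shared subunit gp130, were not detected in EpiSC-GFP+. Jak1 was at least 2.31-fold lower and Il6st at least 2.24-fold lower. Pias3, an inhibitor of Stat3, was higher by 1.57 ± 0.19, with 0.16 for its other probe, and the phosphatase Ptpn11 and the kinase Tyk2 were within 2-fold at 0.17 and -0.09. Under median scaling Ptpn11 was called lower (-0.51), as was Tyk2 (-0.85, not within 2-fold), and the other Tyk2 probes were called higher (1.90 and 0.94).

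Of 16 BMP genes listed, 11 were tested, with 7 lower, 3 higher and 2 within 2-fold, and a median of -0.84. The shares over all genes were 30.5% lower, 46.2% higher and 34.8% within 2-fold. Of the 7 lower BMP genes, 3 (Id2, Id3 and Id4) passed the filter through ESC alone and so had to be lower. Bmp7 passed through EpiSC-GFP+ alone. With detection required in both groups 5 members were called. The Id genes are targets that block differentiation factors. Id2 read 7.99 and 7.84 in ESC, was not detected in EpiSC-GFP+ and was at least 7.26-fold lower (adjusted p = 6.18e-08), with both probes called lower. Id3 was not detected either, at least 2.65-fold lower, and the effector Smad1 differed by -1.65 ± 0.17. The inhibitor Smad6 was higher by 1.47 ± 0.21, although its other probe differed by -0.09, and the receptor Bmpr1a (0.56 ± 0.18) was -0.13 under median scaling and had another probe at -2.97.

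Of 15 FGF genes tested, 9 were higher, 2 lower and 5 within 2-fold, with a median of 0.48. The shares over all genes, for these and the Nodal and Wnt counts below, were 46.2% higher, 30.5% lower and 34.8% within 2-fold. Under median scaling 3 of the FGF genes were higher and 5 lower. The filter was passed through EpiSC-GFP+ alone by 5 of the 15, among them Fgf5, Fgf8 and Fgfr1. Fgfr1, the main FGF receptor of primed cells, was not detected by its representative probe in ESC and was at least 3.15-fold higher (adjusted p = 4.62e-06). The FGF targets Etv4 and Etv5 were higher by 1.15 ± 0.21 and 1.08 ± 0.13, calls that were lost under median scaling (0.47 for Etv4 and 0.39 for Etv5), and the immediate early gene Egr1 differed by 0.01 ± 0.17, or -0.62 under median scaling. Of 13 Nodal genes, 9 were higher, 4 lower and 3 within 2-fold, or 4 higher and 4 lower under median scaling. Among these 13, 2 passed the filter through ESC alone and 1 through EpiSC-GFP+ alone. Foxh1, the partner of Smad2, was higher by 2.38 ± 0.14 with both probes, the protease Furin by 2.21 ± 0.17, and Inhbb, a subunit of activin B, fell by 2.66 on the log2 scale (SE 0.26) and was detected on 1 of 2 EpiSC-GFP+ arrays. Lefty2, a Nodal inhibitor, was within 2-fold at -0.41, or -1.11 and outside it under median scaling. Also within 2-fold were Smad2 and Smad4 at 0.38 and 0.44, which were -0.36 and -0.22 under median scaling. Of 13 Wnt genes, 6 were higher, 5 lower and 2 within 2-fold, with 4 that passed the filter through ESC alone and 3 through EpiSC-GFP+ alone. Ctnnb1, which encodes beta-catenin, read 12.21 and 12.18 in ESC and 9.44 and 9.48 in EpiSC-GFP+ (-2.73 ± 0.11, adjusted p = 3.46e-08), and its other probe differed by -2.66. The Wnt targets Sp5 and Cdx1 were not detected in EpiSC-GFP+. Sp5 was at least 6.46-fold lower and Cdx1 at least 7.55-fold lower. The receptors Fzd2 (at least 3.81-fold) and Fzd7 (0.53, or -0.16 under median scaling) were higher.

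Germ line genes showed both directions, with shares near those over all genes. Of 20 listed, 13 were tested, with 6 higher, 5 lower and 4 within 2-fold, and 8 were higher than in EpiSC-GFP- and 1 lower. Over all genes 46.2% were higher, 30.5% lower and 34.8% within 2-fold, and 16.2% were higher than in EpiSC-GFP- and 14% lower. Under median scaling 1 germ line gene was higher than in ESC and 6 were lower. Rhox5, an X-linked homeobox gene, read 11.33 and 11.10 in ESC and 9.84 and 9.56 in EpiSC-GFP+ (-1.51 ± 0.21, adjusted p = 0.000103), and averaged 5.52 in EpiSC-GFP-, which left EpiSC-GFP+ 4.18 ± 0.21 higher (adjusted p = 1.07e-06). Rhox6 was within 2-fold of ESC (0.06 ± 0.13, or -0.45 under median scaling) and 1.08 above EpiSC-GFP-. Stra8, a gene of meiotic entry, Ddx4, a germ cell helicase, and Nanos3, which protects germ cells, were detected on both ESC arrays and not in EpiSC-GFP+, and were at least 4.53-fold, 2.07-fold and 2.17-fold lower. These 3 passed the filter through ESC alone and so had to be lower, and 2 of the 13 passed through EpiSC-GFP+ alone. The other Ddx4 probes were not detected in either group. Of 8 DNA methylation genes, 5 were higher and 3 lower, or 2 and 3 under median scaling. Uhrf1, which guides maintenance methylation, differed by -2.12 ± 0.14 with both probes lower, Dnmt1, the maintenance enzyme, by -1.36 ± 0.14, and the glycosylase Tdg by 1.51 ± 0.14. The 2-cell stage gene Zscan4c was lower by a difference of -2.25 ± 0.20 and 0.99 above EpiSC-GFP-. Tcstv3, another gene of that stage, was not detected in EpiSC-GFP+.

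Cell adhesion genes changed in opposite directions. Of 15 epithelial genes tested, 11 were higher, 3 lower and 1 within 2-fold, with a median of 1.35. Of all genes 46.2% were higher, 30.5% lower and 34.8% within 2-fold. Of the 15, 3 passed the filter through EpiSC-GFP+ alone and 2 through ESC alone (Cldn7 and Tjp1). Cdh1, E-cadherin, read 10.69 and 10.67 in ESC and 7.54 and 7.37 in EpiSC-GFP+ (-3.22 ± 0.16, adjusted p = 1.03e-07), and Tjp1, a scaffold of tight junctions, was not detected in EpiSC-GFP+ and was at least 10.5-fold lower. St14, a membrane protease, was higher by 2.64 ± 0.15 and Lsr, a protein of tricellular junctions, by 2.24 ± 0.15. Of 8 mesenchymal genes 4 were higher and 4 lower, among them the protease Mmp2 (2.21 ± 0.12) and Sparc, a matrix protein (1.38 ± 0.12). Vim, vimentin, was within 2-fold at -0.42, or -1.12 and outside it under median scaling. Of the 8, 3 passed the filter through ESC alone and 1 through EpiSC-GFP+ alone. In metabolism, 6 of 13 glycolysis genes and 7 of 13 respiratory chain subunits were within 2-fold, beside 45.4% of all genes detected on all 4 arrays. Of the glycolysis genes 6 were higher and 3 lower, or 2 and 4 under median scaling, and of the subunits 6 and 6, or 2 and 7. Gapdh, a glycolytic enzyme, differed by 0.06 ± 0.11, and the glycolytic enzyme Pfkp was higher by 2.59 ± 0.16, with 0.25 for its other probe. The ATP synthase subunit Atp5a1 read 11.92 and 11.71 in ESC and 7.01 and 7.28 in EpiSC-GFP+ (-4.67 ± 0.20), while Atp5b, another subunit, was within 2-fold at 0.37, a call that was lost under median scaling (0.19).

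Markers of other cell types were checked beside these lists. Over all genes 46.2% were higher and 30.5% lower, for comparison with the counts in this paragraph. Of 16 fibroblast markers, 10 were tested, with 3 higher and 6 lower. Ccn1, a matrix protein, was higher by 3.12 ± 0.16 with its probes called in opposite directions, and Thy1 and Ccn2 were higher by 0.71 and 0.84. Their summed intensity was 3967 and 3812 in ESC and 4029 and 4070 in EpiSC-GFP+. Of the lower markers, Acta2 and Fbln2 were detected on both arrays of both groups. They differed by -1.64 and -2.77, with every passing probe called lower. Another 4 of the lower markers passed the filter through ESC alone. Lox and Col3a1 were detected on both ESC arrays and not in EpiSC-GFP+, Lox being at least 5.41-fold lower and Col3a1 at least 1.70-fold lower. Col1a1 and Dcn, chosen after their values were seen, were likewise detected on both ESC arrays and not in EpiSC-GFP+. Col1a2, Postn, Lum, Prrx1, Pdgfrb and S100a4 were not detected in either group. Whether feeder fibroblasts were present in the ESC is not given in the labels, and their part in the genes that are lower than in ESC was not tested. Of 14 endoderm markers 6 were tested, 2 higher, Col4a1 by 2.42 and Dab2 by 1.14, and 4 lower, with Gata6 not detected in EpiSC-GFP+ and Gata4, Sox17, Afp and Ttr not detected in either group. Another passing Dab2 probe was called lower (-0.51, limma adjusted p = 0.0326), and 2 of the 6 markers passed the filter through ESC alone. Of 11 trophectoderm markers 6 were tested, 3 higher, among them the keratins Krt8 (1.67) and Krt18 (1.34), and 3 lower, with Cdx2, the defining factor, detected in ESC only and at least 1.37-fold lower in EpiSC-GFP+, and of 11 neuroectoderm markers Nes alone was tested (1.15 ± 0.15). Of 16 streak genes 5 were tested. Eomes was detected on both ESC arrays and not in EpiSC-GFP+ (at least 1.91-fold lower), and Mixl1, Lhx1, Mesp1 and Foxa2 were not detected in either.

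**Figure D4:**
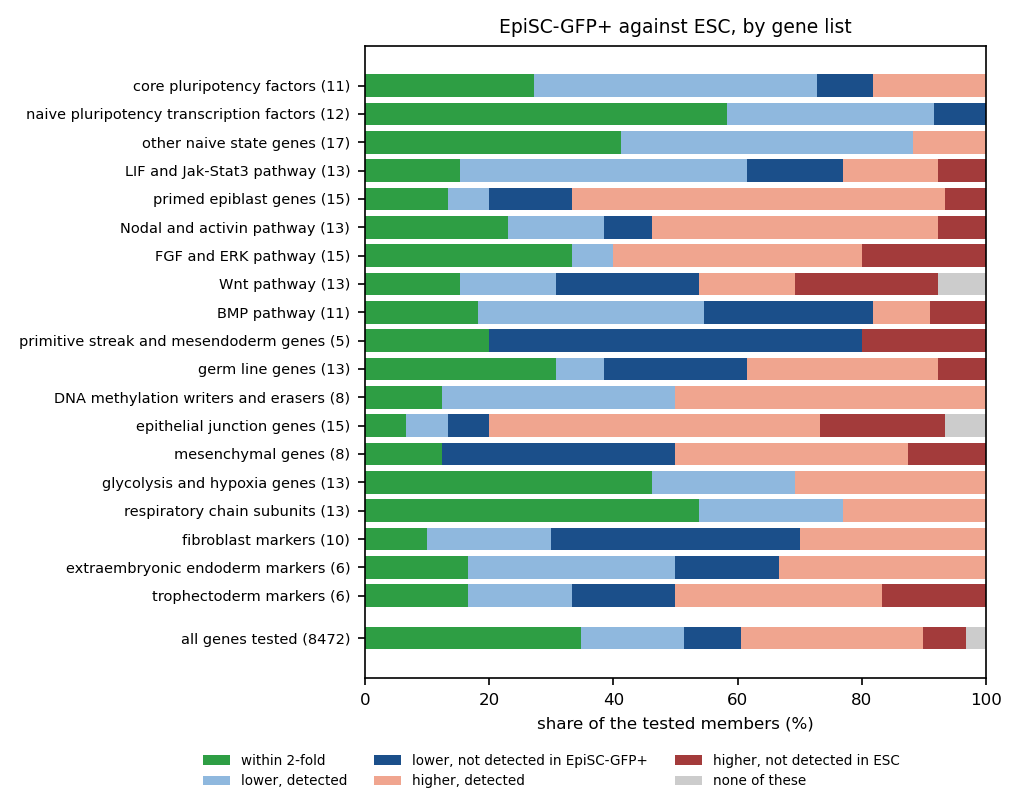
Share of the tested members (%, horizontal axis) of each list with at least 5 tested members that were within 2-fold of ESC, lower or higher, with the number tested in parentheses and all genes at the bottom. The naive transcription factors have no higher class, and the primed and epithelial lists are mostly higher.

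The largest differences are led by genes that were bright in only 1 of the groups. The 8 largest rises, among genes with all passing probes in one direction, were Chst1, Gbp2, Otx2, Car14, Glrx, Txnip, Tro and Slc39a8. Chst1, a sulfotransferase of glycans, was at least 18.5-fold higher than in ESC (adjusted p = 3.14e-08), and Gbp2, an interferon-induced GTPase, at least 14.8-fold (adjusted p = 7.98e-09). Both were lower than in EpiSC-GFP-, by differences of -1.35 and -1.30 (adjusted p = 0.000931 and 8.06e-05). Car14, a carbonic anhydrase, was higher by 4.37 ± 0.16 and Txnip, an inhibitor of thioredoxin, by 3.78 ± 0.23. The 8 largest falls were Klhl13, Cacybp, Vapa, Snx5, Glrx3, Eed, Nudt21 and Kpna3. Klhl13, an adaptor of a ubiquitin ligase, read 10.48 and 10.46 in ESC, was not detected in EpiSC-GFP+ and was at least 42.6-fold lower (adjusted p = 1.71e-09). Eed, a core subunit of Polycomb repressive complex 2, read 11.75 and 11.66 in ESC and 6.01 and 6.37 in EpiSC-GFP+ (-5.51 ± 0.15, adjusted p = 7.98e-09).

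The ESC arrays stood above all others in these 8 falls. The 8 genes read at least 10.02 on each ESC array and at most 8.27 on the 9 arrays outside ESC. Against EpiSC, EpiSC-GFP+ was lower for 5 of them, by differences of -1.05 for Vapa, -1.62 for Glrx3, -0.93 for Eed, -1.78 for Nudt21 and -1.45 for Kpna3, each called by limma. Across all probes, 93 read above 8 on both ESC arrays and below 6 on the other 9, and for 24 of these another passing probe of the same gene differed by less than 1 log2 unit. Of the 776 genes that were lower and not detected in EpiSC-GFP+, 257 were detected on 0 of the 7 arrays outside the comparison, 391 on at least 2, and 734 rested on a single passing probe. Of 2102 genes with several passing probes, 465 had probes called in opposite directions, 510 had all probes higher and 309 all lower. The Klf4 probes differed from ESC by -0.22, -0.38 and -3.74, where the last of these read 9.93 and 9.92 in ESC and 6.24 and 6.12 in EpiSC-GFP+. On that probe too, EpiSC-GFP+ stood above EpiSC-GFP- (4.35 and 4.55) and EpiSC (4.61 and 5.01) on every array. The Mybl2 probes ranged from -1.34 to 0.42 and those of Stat3 from -2.83 to 1.04, a gene chosen after its values were seen. The probe sequences were not used here, and the cause of these disagreements was not tested.

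**Figure D5:**
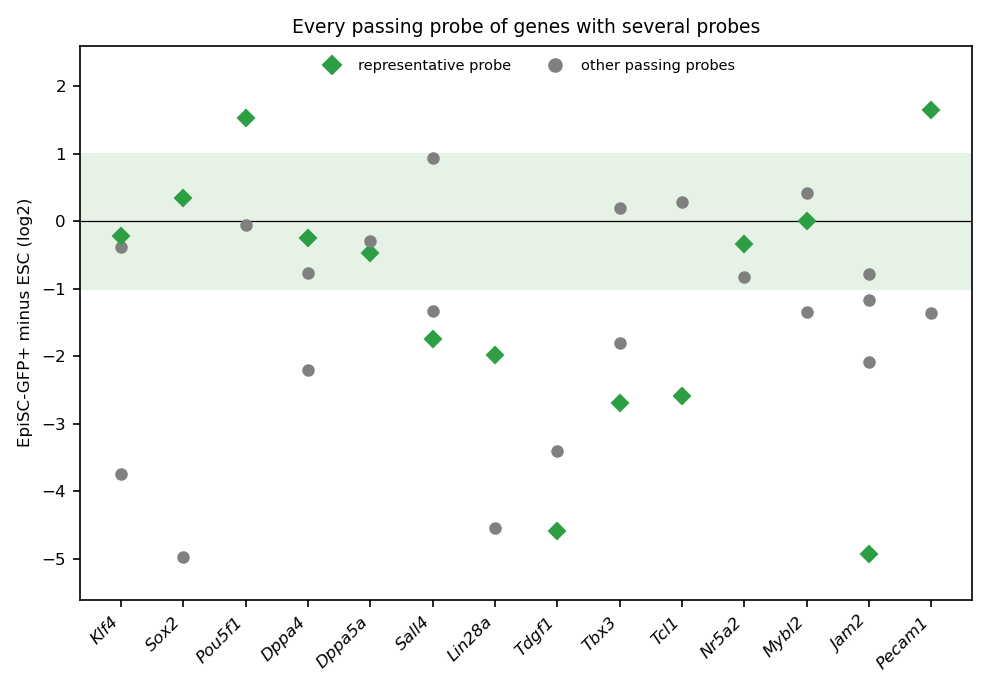
Difference of EpiSC-GFP+ from ESC (log2, vertical axis) for every passing probe of 14 core and naive genes with several probes. Diamonds mark the representative probe, circles the others, and the band spans -1 to 1. The probes of Tdgf1, Lin28a, Nr5a2, Dppa5a and Jam2 lie on the lower side, and those of Sox2, Klf4, Sall4, Tbx3, Tcl1 and Pecam1 are spread over 2 log2 units or more.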

How the data were processed

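RNA of 11 samples, the sorted fractions among them, was labelled and hybridised to Illumina MouseRef-8 v2 arrays, per the labels. The deposited scanner table gives a mean bead intensity and a detection p-value per probe, and per the file headers these are not normalized; BeadStudio 3.2 is named in the submitters' processing notes. A second deposited table holds the authors' log2 values, quantile normalized as its equal columns show, with lumi and RMA named in the submitters' processing notes without order and its background step not given in the sources used here; it served as an alternative.

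Intensities were background corrected with normexp and the detection p-values (offset 16), quantile normalized over 11 arrays and put on the log2 scale in limma 3.58.1 (R 4.3.3). A mean per group was fitted over all 11 arrays with lmFit and eBayes, and p-values were adjusted by Benjamini-Hochberg over 8472 genes. Gene names came from the platform annotation and were updated by Entrez number for 23962 probes; 23978 of 25697 probes had 1 symbol and 1719 none. A probe undetected on both arrays of a group gives a fold bound, with the lowest detected signal of each array, or the probe's own if higher, in its place. The number of arrays limits the precision. The limma step alone was tested on simulated arrays, with 200 genes changed or none, whereas 76.7% of genes were called here. That test did not cover the normalization, the filter, the choice of probe or the fold bounds.

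The comparison, the 21 gene lists and the promoter motifs were chosen with earlier results of these data known. Named genes are the markers, all tested core and naive factors, the 8 largest rises and 8 largest falls with all probes called in one direction, and of each other list up to 5 members with the largest difference and up to 3 within 2-fold with the smallest. Replicate numbers do not pair the arrays (r of deviations from -0.02 to 0.10). Alternatives covered background, normalization, filter, probes, arrays in the fit, variance model, threshold, replicate block and leaving out each array.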

Additional observations from a re-analysis of the deposited data

Results flagged for a closer look

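For 4 of the 151 named genes the difference from ESC was called in opposite directions in EpiSC-GFP+ and in EpiSC-GFP- or EpiSC, and the difference between the epiblast stem cell groups was itself called by limma. Over all 8472 genes this held for 95 genes against EpiSC-GFP- and 187 against EpiSC. This selection was made after the values were seen, and the other differences from EpiSC-GFP- and EpiSC are the comparisons of the results above. Pecam1 was 1.65 above ESC in EpiSC-GFP+, and differed from ESC by -0.62 in EpiSC-GFP- and -1.07 in EpiSC. EpiSC-GFP+ was 2.27 above EpiSC-GFP- (adjusted p = 2.39e-05) and 2.72 above EpiSC (adjusted p = 4.45e-06), while another Pecam1 probe was lower than in ESC by a difference of -1.36. Taf7l, an X-linked germ cell relative of a general transcription factor, was 0.44 above ESC in EpiSC-GFP+ (adjusted p = 0.0261), or 0.19 with cyclic loess and -0.10 with median scaling, neither called. It was 1.34 above EpiSC-GFP- and 1.65 above EpiSC, and its call against ESC was lost without EpiSC-GFP+ replicate 1 or either ESC array (adjusted p = 0.239, 0.0759 and 0.0995). Etv5 was 1.08 above ESC in EpiSC-GFP+ and differed by -0.36 in EpiSC, so that EpiSC-GFP+ was 1.44 above EpiSC (adjusted p = 3.89e-05), and its difference from ESC was not called under median scaling (0.39). Sox2 was 0.35 above ESC in EpiSC-GFP+ and differed by -1.42 in EpiSC, a difference of 1.77 between them (adjusted p = 6.71e-06), on a probe that the other Sox2 probe contradicts (-4.97). The Sox2 difference of EpiSC-GFP+ from ESC was 0.02 with cyclic loess and -0.33 with median scaling. The causes were not tested.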

How the results depend on the processing

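Of 424 values of the counts under alternatives, 402 kept to within 1.5 times the main count, and of 2501 values of 151 named genes 58 lost the call, 36 gained one, 16 changed sign with a call in the main or the other fit, and 22 changed sign with no call in either. Detection required on both arrays of both groups left 0 genes called lower and not detected in EpiSC-GFP+, by construction, and fewer called list members: 8 primed, 7 LIF, 6 FGF, 6 germ line, 5 BMP, 5 Wnt, 5 fibroblast, 4 mesenchymal, 1 streak and 1 of the 2-cell stage. Under that filter another probe stood for Smad6 (-0.09). Median scaling gave 11 called naive factors, 8 Nodal, 7 germ line and 5 DNA methylation genes; no detection filter gave 2 neuroectoderm markers. A difference of at least 1 log2 unit left 3505 genes against ESC, 509 against EpiSC-GFP- and 987 against EpiSC. Under median scaling these differences changed sign with a call in 1 of the fits: Alpl -0.60, Bmpr1a -0.13, Dnmt3b -0.09, Egr1 -0.62, Fzd7 -0.16, Mybl2 -0.64, Ptpn11 -0.51, Smad2 -0.36, Smad4 -0.22, Sox15 -0.62, Sox2 -0.33, Taf7l -0.10, Tex19.1 -0.57 and Utf1 (to 0). So did 7 that neither fit called: Zfp42 -0.39, Aldoa -0.33, Dusp4 -0.43, Gapdh -0.02, Rhox6 -0.45, Tagln -0.30 and Tcf15 -0.49. With cyclic loess Dppa5a became 0.05, and 10 values that neither fit called turned: Aldoa -0.08, Alpl -0.23, Dusp4 -0.08, Egr1 -0.30, Ptpn11 -0.20, Rhox6 -0.24, Sox15 -0.25, Tcf15 -0.12, Tex19.1 -0.21 and Zfp42 -0.02. The germ line median moved from 0.10 to -0.21 with cyclic loess and -0.45 with median scaling, and the mesenchymal median from 0.19 to -0.13 and -0.49. The count within 2-fold of ESC ran from 2175 with the authors' values to 4396 without background correction. Leaving out each array in turn gave 5809 to 5959 genes against ESC, 1403 to 1791 against EpiSC-GFP- (1403 and 1412 without EpiSC-GFP+ replicates 1 and 2), 2681 to 3689 against EpiSC and 3 to 5 streak genes (3 without EpiSC-GFP+ replicate 2); 12 named genes lost a call without 1 array (Atp5b, Bmpr1a, Esrp1, Evx1, Hhex, Lefty2, Ndufv1, Smad2, Sox2, Taf7l, Tead4 and Vim). With the replicate block 6465 genes were called against ESC, 2478 against EpiSC-GFP- and 3654 against EpiSC, and of the named genes Ndufv1 alone lost its call. Centring on the median of all genes and leaving out the T9-EpiSC array were added after seeing the data, and gave 3243 genes within 2-fold and 6498 calls against ESC. No slide is recorded in the tables, so that block could not be fitted. Where a setting moved a result and its construction does not show why, the cause was not tested. Dim probes limit the folds given as bounds.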
